A study of Mus musculus with 28 samples.

Results

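The hepatic drug and anion transporters described here are 64 genes of 36072 gene symbols in the count tables. They were chosen by symbol alone, as every gene of the Slc22a, Slco, Abcb, Abcc and Abcg families except Abcb11 and Abcg1. The set holds 25 Slc22a, 15 Slco, 10 Abcc, 9 Abcb and 5 Abcg genes. Livers of 7 female Mif-2-/- Apoe-/- mice were compared with livers of 7 female Apoe-/- mice. Mif-2, named Ddt in the count tables, encodes the cytokine MIF-2, and its deletion was global, not restricted to the liver. All mice were on a C57BL/6 background and lacked Apoe, which raises plasma cholesterol, and all received a cholesterol-rich high-fat diet (HFD) for 12 weeks from an age of 8 weeks. No wild-type mice and no mice on normal chow were analysed here.

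Drugs, bile acids, bilirubin conjugates, steroid conjugates and lipids pass between blood, hepatocyte and bile through carriers and pumps. Slco proteins (organic anion transporting polypeptides) and Slc22a proteins (organic cation and organic anion transporters) take solutes up from sinusoidal blood, and ATP-driven pumps of the Abcb, Abcc and Abcg families move them into the bile canaliculus or back into blood. Many of these genes are targets of nuclear receptors for xenobiotics, bile acids and oxysterols. Mouse liver carries Slco1a1, Slco1b2 and several Slc22a genes without a counterpart of the same name in humans.

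RNA was read by prime-seq, which counts 1 tag with a molecular barcode near the 3' end of each captured transcript. Each mouse had 2 libraries, which were summed, and a mouse then held 1336787 to 2715022 counts. Values are CPM, that is counts scaled to a common library size after TMM scaling, and 3 counts corresponded to 1.07 to 3.23 CPM. The members together held 0.186 to 0.303% of the counts of a mouse. In all, 35 of the 64 members averaged at least 10 counts per mouse (11 Slc22a, 6 Slco, 7 Abcb, 7 Abcc and 4 Abcg genes), and 29 averaged less. Differences of the 35 members between both libraries of the same mouse, as chi-squared over its degrees of freedom, were 0.74 to 2.02 times what counting error gives (median 1.10). The labels list each library as a sample and mark the second library of a mouse as a duplicate, but give no litter or cage.

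Ddt, the deleted gene, had 5 to 12 counts per Mif-2-/- Apoe-/- mouse against 84 to 316 per Apoe-/- mouse, so every mouse matched its label. Of the 7 hepatocyte markers, 6 had a log2 fold change above 0, and Cps1 (0.76, unadjusted p = 0.00218, adjusted p = 0.146) and Tat (0.66, unadjusted p = 0.00394, adjusted p = 0.183) had an unadjusted p below 0.05. That list summed to 26064 to 48599 CPM in Mif-2-/- Apoe-/- livers and 25867 to 41159 CPM in Apoe-/- livers. Of the 7 Kupffer cell and macrophage markers, 4 had an unadjusted p below 0.05, all higher, and Timd4 passed the adjusted test (log2 fold change 1.30, adjusted p = 0.0373). The macrophage list summed to 467 to 1002 CPM in Mif-2-/- Apoe-/- livers and 542 to 669 CPM in Apoe-/- livers. Of the 5 cholangiocyte markers 2 could be tested and neither passed, and the list summed to 56.9 to 127 CPM in Mif-2-/- Apoe-/- livers and 62.0 to 273 CPM in Apoe-/- livers, highest in Apoe-/- mouse 2. Of 5 endothelial markers Clec4g stood higher and Lyve1 lower at an unadjusted p below 0.05, and of 6 stellate cell markers Des, which muscle also expresses, stood higher at that threshold through Mif-2-/- Apoe-/- mouse 3 (342 CPM), with 4.31 to 12.5 CPM in the other Mif-2-/- Apoe-/- livers and 6.76 to 12.3 CPM in Apoe-/- livers. Each T and B cell marker was near 0, with a sum of at most 7.84 CPM. In bulk liver, fewer cells of a type and less RNA per cell cannot be told apart.

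Single livers stood apart in genes other than transporters. The acute-phase gene Saa1 stood at 19689 CPM in Mif-2-/- Apoe-/- mouse 4 and 6860 CPM in mouse 6, against at most 691 CPM in the other Mif-2-/- Apoe-/- livers and 251 to 431 CPM in Apoe-/- livers. Mif-2-/- Apoe-/- mouse 3 carried skeletal muscle transcripts, with Acta1 at 1732 CPM against at most 13.0 CPM in any other liver, with a sum of 4191 CPM over 4 muscle markers. Each member whose unadjusted p went above 0.05 without mice 4 and 6 is given with and without them.

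None of the 34 members that could be tested was called at an adjusted p below 0.05 in the edgeR quasi-likelihood test across 9684 genes, in which 21 genes (0.217%) were called. The lowest adjusted p of a member was 0.0859, for Abcc5. DESeq2 called 0 of the 19 members to which it gave an adjusted p (lowest 0.139), against 116 of 3902 genes (2.97%). At an unadjusted p below 0.05, 11 of 34 members passed in edgeR, 4 higher and 7 lower in Mif-2-/- Apoe-/- livers, beside 12.9% of all genes tested (7.37% higher and 5.49% lower), and in DESeq2 11 of 64 members passed, beside 5.09% of 36072 genes. With no filter on low counts edgeR called 344 of 36072 genes, among them 3 of 64 members (Abcc5, Slc22a26 and Slc22a7). With library totals as the only scaling it called 21 of 9684 genes, among them 1 of 34 members (Abcc5). In no member were the groups fully apart, which held for 0.279% of all genes tested. The median log2 fold change was -0.04 over the 34 members and 0.01 over all genes tested, with 16 members above 0 and 18 below.

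**Figure D1:**
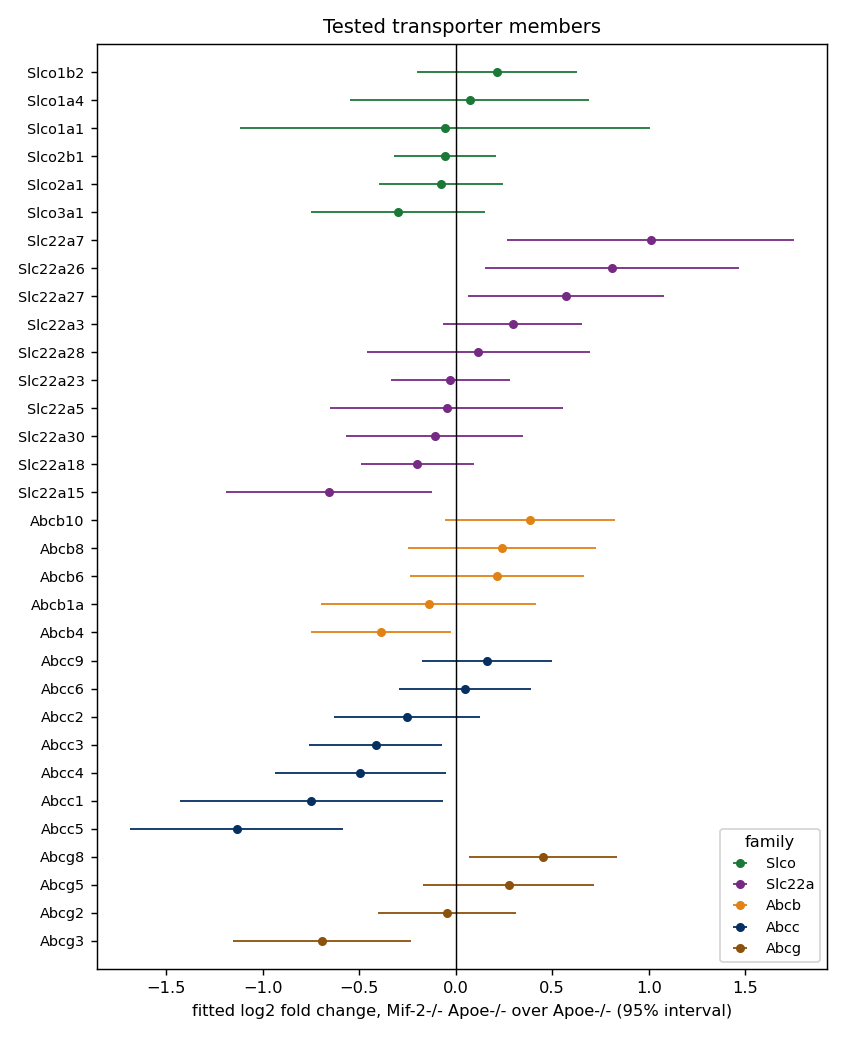
Fitted log2 fold change of 32 of the 34 tested members, Mif-2-/- Apoe-/- over Apoe-/-, with 95% intervals (lines) and grouped by family (colours). Abcc5 lies lowest at -1.13 and Slc22a7 highest at 1.01, and 21 of the 32 intervals include 0.

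Summed over their members, the Slco, Slc22a and Abcg families stood slightly higher and the Abcb and Abcc families slightly lower in Mif-2-/- Apoe-/- livers, in each case by less than the SD of the Mif-2-/- Apoe-/- mice. The Slco genes summed to 989 ± 288 CPM in Mif-2-/- Apoe-/- livers and 882 ± 147 CPM in Apoe-/- livers (SD, n = 7 each). The Slc22a genes summed to 700.0 ± 142 CPM in Mif-2-/- Apoe-/- livers and 620.4 ± 53.9 CPM in Apoe-/- livers. The Abcb genes summed to 253 ± 52.3 CPM in Mif-2-/- Apoe-/- livers and 291 ± 26.2 CPM in Apoe-/- livers. Mif-2-/- Apoe-/- mouse 4, the liver with the most Saa1, had the lowest sum of its group in the Slco, Abcb, Abcc and Abcg families. Mif-2-/- Apoe-/- mouse 2, with the lowest total and TMM factor of all mice, had the highest Abcb (346 CPM) and Abcc (493 CPM) sums of its group. The Abcc sum was 373 ± 78.1 CPM in Mif-2-/- Apoe-/- livers and 439 ± 49.98 CPM in Apoe-/- livers. For Abcg it was 151 ± 32.3 CPM in Mif-2-/- Apoe-/- livers and 134 ± 19.1 CPM in Apoe-/- livers.

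**Figure D2:**
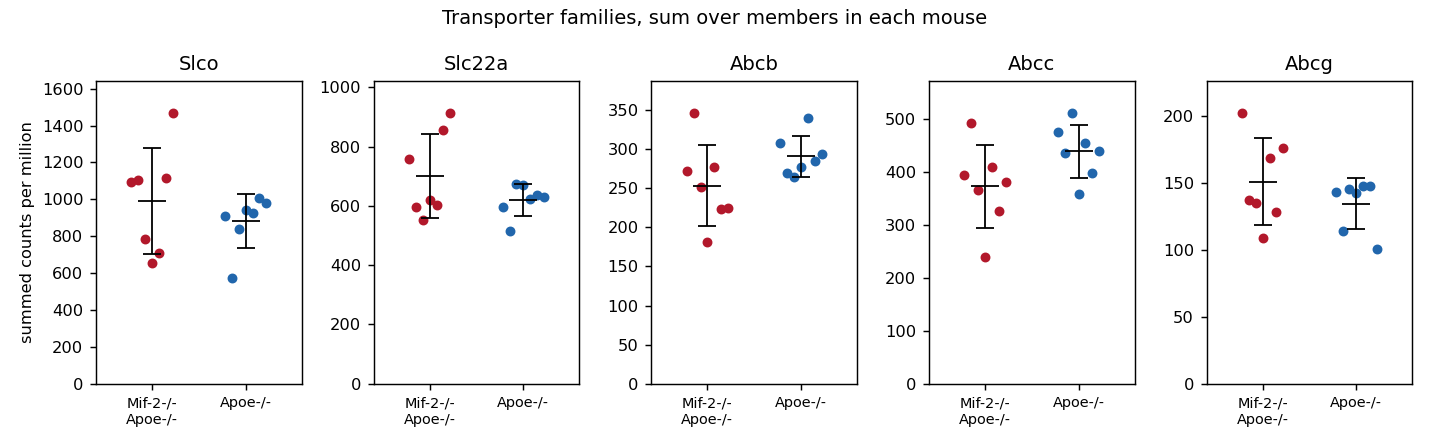
Summed CPM of each transporter family in each mouse (points), with the group mean and SD (bar and whiskers), Mif-2-/- Apoe-/- left and Apoe-/- right. The groups overlap in all 5 families, and the Slco sums of Mif-2-/- Apoe-/- mice run from 655 to 1466 CPM.

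Of the uptake carriers, Slco1b2 gave most Slco tags, 77.1 to 88.4% in Mif-2-/- Apoe-/- livers and 78.0 to 83.8% in Apoe-/- livers. Slco1b2 takes up bile acids, bilirubin conjugates and statins at the sinusoidal membrane. It stood between 535 and 1285 CPM (median 897) in Mif-2-/- Apoe-/- livers and between 453 and 833 CPM (median 761) in Apoe-/- livers. In 4 Mif-2-/- Apoe-/- mice it was above every Apoe-/- mouse, while the other 3 lay within the Apoe-/- range. The fitted log2 fold change was 0.21 (95% interval -0.20 to 0.63, adjusted p = 0.652).

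The remaining Slco genes did not pass the unadjusted threshold. Slco1a4, a carrier of bile acids and cardiac glycosides, had a log2 fold change of 0.07. Slco2b1, a carrier of sulfated steroids, was at -0.06. The prostaglandin carrier Slco2a1 was at -0.07, and Slco3a1, which is broadly expressed, at -0.30. Slco1a1, a steroid conjugate carrier that is more abundant in male than in female mouse liver, was the most variable of the 35 members. It ranged from 3.55 to 58.1 CPM (median 12.9) among Mif-2-/- Apoe-/- livers and from 7.09 to 45.0 CPM (median 14.9) among Apoe-/- livers. Its log2 fold change of -0.06 had a 95% interval of -1.12 to 1.01, so a change in either direction within these bounds remains possible.

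The organic anion transporter genes Slc22a7, Slc22a26 and Slc22a27 stood higher in Mif-2-/- Apoe-/- livers at an unadjusted p below 0.05. Slc22a7 (Oat2), on the minus strand at chr17:46432183-46438457 of mm10, carries organic anions and cyclic nucleotides. It stood at 3.75 to 25.2 CPM (median 15.7) in Mif-2-/- Apoe-/- livers and 1.87 to 12.0 CPM (median 9.54) in Apoe-/- livers. In 5 Mif-2-/- Apoe-/- mice it was above every Apoe-/- mouse, and mice 2 and 5 fell within the Apoe-/- range. The log2 fold change was 1.01 (SE 0.36, unadjusted p = 0.0100, adjusted p = 0.241). Mice 4 and 6 were the highest of their group, and without both the value was 0.67 (unadjusted p = 0.0986), while without mice 3, 4 and 6 it was 0.55. Leaving out the highest mice had to lower the value, so the p-value of that fit is no support against a difference.

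Slc22a26, Slc22a27, Slc22a28 and Slc22a30 lie within 1 stretch of chromosome 19, in that order and all on the minus strand. They are organic anion transporter genes of rodents. Slc22a26 stood at 24.4 to 105 CPM (median 50.5) in Mif-2-/- Apoe-/- livers and 7.84 to 55.9 CPM (median 31.0) in Apoe-/- livers. It was above the Apoe-/- mean in 6 of 7 Mif-2-/- Apoe-/- mice and above every Apoe-/- mouse in 3. The log2 difference was 0.81 (SE 0.32, unadjusted p = 0.0179, adjusted p = 0.279), or 0.56 without mice 4 and 6 (unadjusted p = 0.0942).

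Slc22a27 stood at 16.7 to 49.8 CPM (median 29.4) in Mif-2-/- Apoe-/- livers and 14.9 to 38.0 CPM (median 20.7) in Apoe-/- livers. Here too 6 of 7 Mif-2-/- Apoe-/- mice were above the Apoe-/- mean, and mouse 4 was the lowest. The log2 fold change was 0.57 (SE 0.24, unadjusted p = 0.0290, adjusted p = 0.321). It kept an unadjusted p below 0.05 in 8 of 14 fits without 1 mouse, with the highest p without Mif-2-/- Apoe-/- mouse 7 (log2 fold change 0.45, unadjusted p = 0.0859). The other pair of the stretch did not pass the unadjusted threshold, and the difference between the pairs was not tested. Slc22a28 had a log2 fold change of 0.12 and Slc22a30 of -0.11, with 95% intervals of -0.46 to 0.69 and -0.57 to 0.35. Of the 50-base words in the last 500 bases of Slc22a28, 47.7% also occur in Slc22a30, so tags of Slc22a28 may be split between them. Of those of Slc22a30, 0% occur in another gene, and 13.3% of those of Slc22a27 occur in Slc22a29.

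The bases just upstream of the RefSeq starts (GRCm38.p6, the same assembly as mm10) are shown to describe how alike the promoters of these neighbours are. A part of these bases in the values of the genes was not tested. Each run is the 120 bases before the start, read on the minus strand, and capitals mark the longest stretch that Slc22a28 and Slc22a30 share, 48 bases.
Slc22a26, chr19:7802668-7802787: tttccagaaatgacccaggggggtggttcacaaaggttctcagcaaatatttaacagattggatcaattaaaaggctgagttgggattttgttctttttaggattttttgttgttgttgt
Slc22a27, chr19:7966028-7966147: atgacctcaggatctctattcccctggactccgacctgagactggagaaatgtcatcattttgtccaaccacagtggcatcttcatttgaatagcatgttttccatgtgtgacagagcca
Slc22a28, chr19:8131983-8132102: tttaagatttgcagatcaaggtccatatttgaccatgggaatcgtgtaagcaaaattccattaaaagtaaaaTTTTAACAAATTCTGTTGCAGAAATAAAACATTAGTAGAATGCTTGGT
Slc22a30, chr19:8405106-8405225: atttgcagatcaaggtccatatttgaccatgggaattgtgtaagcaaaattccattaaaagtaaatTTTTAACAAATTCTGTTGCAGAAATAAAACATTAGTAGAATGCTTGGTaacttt
In a global alignment Slc22a28 and Slc22a30 were 88.9% identical, and the other 5 pairs, among them Slc22a26 with Slc22a27, were 37.4 to 45.5% identical with shared runs of at most 8 bases. RefSeq promoter windows were at hand for 52 of the 64 members.

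Slc22a15, an uptake carrier of zwitterions, was the Slc22a member that stood lower. It had 3.25 to 13.1 CPM (median 7.11) in Mif-2-/- Apoe-/- livers and 7.14 to 18.1 CPM (median 12.7) in Apoe-/- livers. In 4 Mif-2-/- Apoe-/- mice it was below every Apoe-/- mouse. The log2 fold change was -0.66 (SE 0.26, unadjusted p = 0.0186, adjusted p = 0.280). The other Slc22a members did not pass the unadjusted threshold: the cation carrier Slc22a3 was at 0.30, Slc22a18 at -0.20, Slc22a23 at -0.03 and the carnitine carrier Slc22a5 at -0.05 on the log2 scale. The 3' end of Slc22a3 overlaps exons of Plg on the other strand, and 74.1% of the terminal words of Slc22a5 are shared with Slc22a21, so these values are uncertain. Plg itself had a log2 fold change of 0.37 (unadjusted p = 0.0376).

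At the canaliculus, Abcb4 stood lower and Abcg8 higher at an unadjusted p below 0.05, and the other pumps lay between them. Abcb4 (Mdr2) moves phosphatidylcholine into bile. It had 93.4 to 229 CPM (median 158) in Mif-2-/- Apoe-/- livers and 168 to 249 CPM (median 193) in Apoe-/- livers. In 5 Mif-2-/- Apoe-/- mice it was below every Apoe-/- mouse, with mouse 4 lowest. The log2 fold change was -0.39 (SE 0.17, unadjusted p = 0.0371, adjusted p = 0.350), and it was -0.29 without mouse 4 (unadjusted p = 0.0892) and -0.21 without mice 4 and 6 (unadjusted p = 0.201). Mice 4 and 6 were the lowest of their group, so leaving them out had to bring the value nearer to 0. The p-values of those fits are no support against a difference. Of the terminal words of Abcb4, 13.5% occur in other genes, most of them in Abcb1a.

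Abcc2 (Mrp2), the pump for bilirubin and glutathione conjugates, gave most Abcc tags. It had 110.5 to 299 CPM (median 220.0) in Mif-2-/- Apoe-/- livers and 195 to 331 CPM (median 256) in Apoe-/- livers. Mouse 4 was again lowest, and only 2 of 7 Mif-2-/- Apoe-/- mice were below every Apoe-/- mouse. Its log2 fold change of -0.25 (95% interval -0.63 to 0.13, adjusted p = 0.556) had an interval that includes 0. Abcb1a and Abcg2, efflux pumps for lipophilic drugs, did not pass the unadjusted threshold. On the log2 scale Abcb1a was at -0.14 (95% interval -0.70 to 0.42) and Abcg2 at -0.05 (95% interval -0.40 to 0.31).

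Abcg5 and Abcg8 encode both subunits of the canalicular sterol pump, which exports cholesterol and plant sterols into bile. Abcg8 had 38.4 to 76.2 CPM (median 49.7) in Mif-2-/- Apoe-/- livers and 26.5 to 55.9 CPM (median 39.2) in Apoe-/- livers, with 6 of 7 Mif-2-/- Apoe-/- mice above the Apoe-/- mean. On the log2 scale the difference was 0.45 (SE 0.18, unadjusted p = 0.0226, adjusted p = 0.297). Abcg5 had 25.6 to 69.5 CPM (median 41.8) in Mif-2-/- Apoe-/- livers and 20.7 to 52.8 CPM (median 40.9) in Apoe-/- livers, with a log2 fold change of 0.27 (95% interval -0.17 to 0.72). Abcg8 kept an unadjusted p below 0.05 in 10 of 14 fits without 1 mouse, and without Mif-2-/- Apoe-/- mouse 1 its log2 fold change was 0.36 (unadjusted p = 0.0647). The Saa1-rich Mif-2-/- Apoe-/- mice 4 and 6 had the lowest Abcg8 (38.4 and 45.95 CPM) and Abcg5 (25.6 and 36.8 CPM) of their group. Leaving them out therefore had to raise both fold changes, and the p-values of that fit are no support for a difference. Without Mif-2-/- Apoe-/- mice 4 and 6 the log2 fold change was 0.60 for Abcg8 (unadjusted p = 0.00479, adjusted p = 0.327) and 0.47 for Abcg5 (unadjusted p = 0.0347, adjusted p = 0.480).

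The partner genes start 110 bases apart and run in opposite directions on chromosome 17, and the bases between their RefSeq starts are shown as the promoter they share. Capitals mark matches to the GATA-type motif AGATAA on either strand.
Abcg5-Abcg8, chr17:84683012-84683120, plus strand: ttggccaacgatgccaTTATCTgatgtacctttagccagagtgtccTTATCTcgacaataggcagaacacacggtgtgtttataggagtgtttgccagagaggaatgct
The 109 bases held 2 matches, both on the minus strand, and 3.98% of all 32851 RefSeq promoter windows of this length held at least 1. Across the 7 Mif-2-/- Apoe-/- mice, Abcg5 and Abcg8 moved together (Pearson's r = 0.94, exact permutation p = 0.00258, adjusted over 16 correlations 0.0413, Spearman's rho = 0.96, exact p = 0.00278, adjusted 0.0444), and r was 0.83 without the 2 mice farthest from the median of Abcg5. Across the 7 Apoe-/- mice r was 0.72 (exact permutation p = 0.0708, adjusted 0.351, rho = 0.36, exact p = 0.444, adjusted 0.646) and -0.69 without the 2 farthest mice, so that the relation rests on those mice there. An annotated Abcg8 transcript starts within Abcg5, and their exons overlap on opposite strands by position, so tags in that stretch cannot be assigned without strand. The 16 correlations cover 8 pairs of neighbouring members in each group, and no other passed the adjusted threshold.

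**Figure D3:**
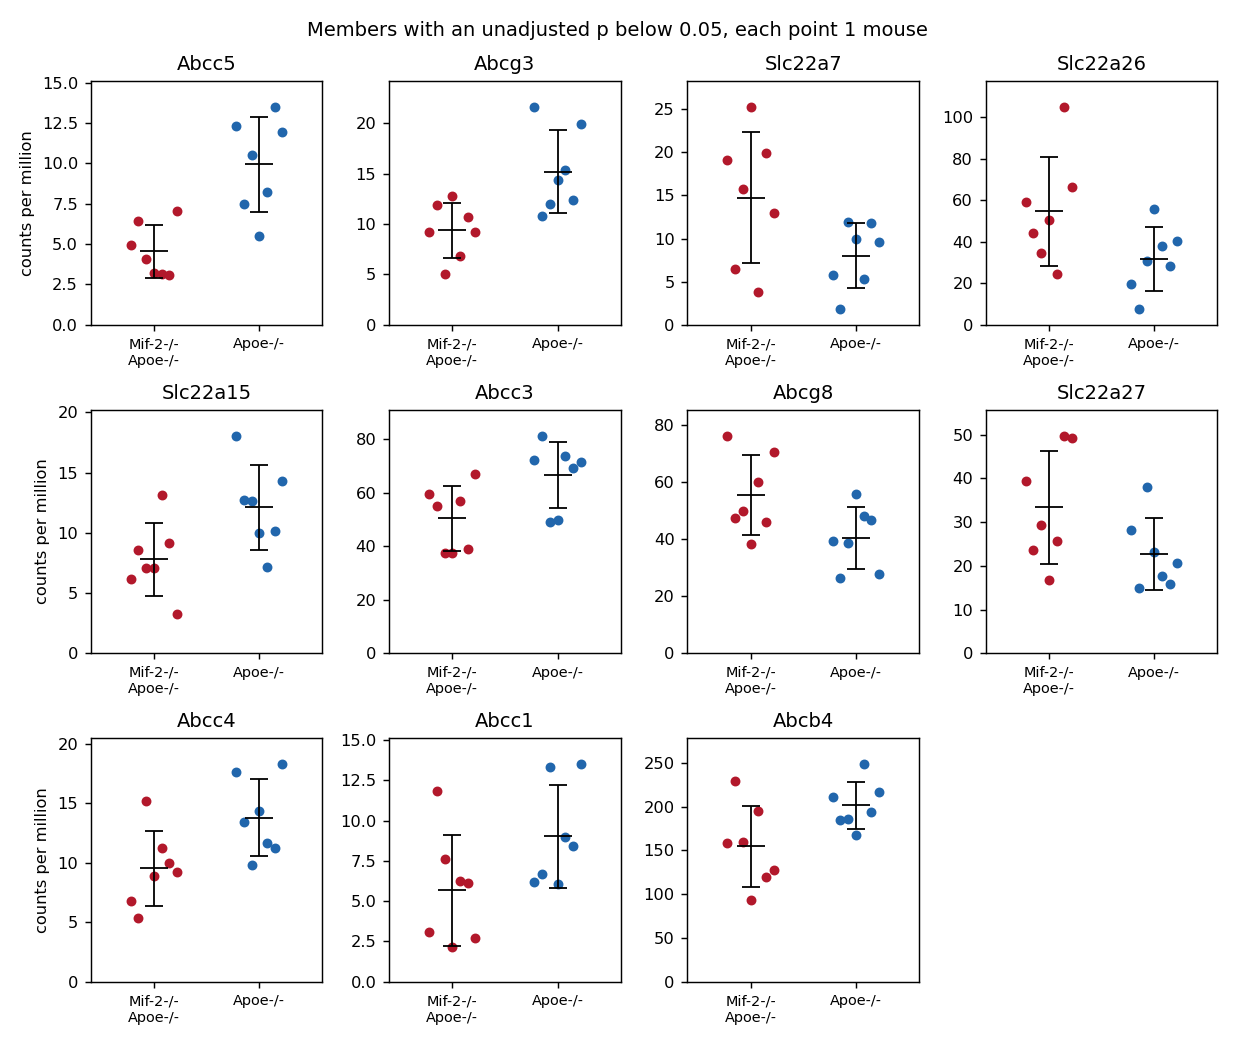
CPM of the 11 members with an unadjusted p below 0.05 in each mouse (points), with the group mean and SD, Mif-2-/- Apoe-/- left and Apoe-/- right, in order of p from Abcc5 to Abcb4. In every panel at least 1 Mif-2-/- Apoe-/- mouse lies within the Apoe-/- range.

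Pumps at the basolateral membrane, which return conjugates, nucleotides and bile acids to blood, made up 4 of the 7 members that stood lower. Of the 5 members of this group, Abcc1, Abcc3, Abcc4 and Abcc5 had an unadjusted p below 0.05 and Abcc6 did not, at a log2 fold change of 0.05, beside 5.49% of all genes tested that stood lower at that threshold. That count was 1 of 5 without Mif-2-/- Apoe-/- mouse 4 or without mice 4 and 6, with Abcc5 the one left, and 2 of 5 without Mif-2-/- Apoe-/- mouse 1 or Apoe-/- mouse 7. Of the 3 that could be tested in single libraries, 2 passed in the first library of each mouse and 0 in the duplicate. The median of the 5 was -0.49, against 0.01 for all genes tested. It was -0.45 without mouse 4 and -0.46 without mice 4 and 6. Without mice 3, 4 and 6 it was -0.69, with 2 of 5 passing. Over the 3 tested in the duplicate libraries it was 0.03. The group summed to 131 ± 23.0 CPM in Mif-2-/- Apoe-/- livers and 158 ± 15.4 CPM in Apoe-/- livers (SD, n = 7 each).

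Abcc5 (Mrp5), an exporter of cyclic nucleotides and folates at chr16:20331303-20426394 of mm10, had the lowest p of all members. It stood at 3.06 to 7.04 CPM (median 4.06) in Mif-2-/- Apoe-/- livers and 5.53 to 13.5 CPM (median 10.6) in Apoe-/- livers, that is 4 to 13 counts in Mif-2-/- Apoe-/- mice and 10 to 28 in Apoe-/- mice. All 7 Mif-2-/- Apoe-/- mice were below the Apoe-/- mean, and 5 were below every Apoe-/- mouse. The log2 fold change was -1.13 (SE 0.27, 95% interval -1.68 to -0.58, unadjusted p = 0.000324, adjusted p = 0.0859). It kept an unadjusted p below 0.05 in all 14 fits that left out 1 mouse, with adjusted p between 0.0421 and 0.231, and was called at 0.0421 without Mif-2-/- Apoe-/- mouse 2. Without mice 4 and 6 the log2 fold change was -0.95 (unadjusted p = 0.00410, adjusted p = 0.312).

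Abcc3 (Mrp3), which exports bile acid and bilirubin glucuronides to blood, had 37.5 to 67.2 CPM (median 54.9) in Mif-2-/- Apoe-/- livers and 49.2 to 81.3 CPM (median 71.6) in Apoe-/- livers. The fitted value was -0.41 on the log2 scale (SE 0.17, unadjusted p = 0.0204, adjusted p = 0.289). Mice 3, 4 and 6 were the 3 Mif-2-/- Apoe-/- livers below every Apoe-/- mouse, and without them the log2 fold change was -0.15 (unadjusted p = 0.387), or -0.27 without mice 4 and 6 (unadjusted p = 0.125). Leaving out the lowest mice had to bring the value nearer to 0, so the p-values of these fits are no support against a difference.

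Abcc4 (Mrp4), which exports bile acids with glutathione as well as cyclic nucleotides, had 5.38 to 15.2 CPM (median 9.21) in Mif-2-/- Apoe-/- livers and 9.85 to 18.3 CPM (median 13.4) in Apoe-/- livers. On the log2 scale the difference was -0.49 (SE 0.21, unadjusted p = 0.0314, adjusted p = 0.328). Without mouse 4 it was -0.45 (unadjusted p = 0.0612), and without mice 4 and 6 it was -0.46 (unadjusted p = 0.0756). Without mice 3, 4 and 6 it was -0.69 (unadjusted p = 0.0139). Mouse 3 was the highest of its group, so leaving it out had to lower the value. In the first library of each mouse alone the log2 fold change was -1.15 (adjusted p = 0.0824) and in the duplicate library alone the direction turned, at 0.12, and the cause was not tested. Abcc1 (Mrp1), an exporter of glutathione conjugates and leukotriene C, had 2.13 to 11.8 CPM (median 6.13) in Mif-2-/- Apoe-/- livers and 6.08 to 13.5 CPM (median 8.43) in Apoe-/- livers. At 5 to 24 counts per mouse its log2 fold change was -0.75 (SE 0.33, unadjusted p = 0.0326, adjusted p = 0.333), and -0.56 without mice 4 and 6 (unadjusted p = 0.116). The last Abcc member, the potassium channel subunit Abcc9, was at 0.16.

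Abcg3, a rodent member of the Abcg family with no established substrate, had 5.07 to 12.8 CPM (median 9.22) in Mif-2-/- Apoe-/- livers and 10.8 to 21.6 CPM (median 14.4) in Apoe-/- livers. All 7 Mif-2-/- Apoe-/- mice were below the Apoe-/- mean and 5 were below every Apoe-/- mouse. Its log2 fold change was -0.69 (SE 0.22, unadjusted p = 0.00509, adjusted p = 0.198), and the unadjusted p stayed below 0.05 in all 14 fits without 1 mouse. So it did for Slc22a7, while it did in 13 fits for Abcc3, Slc22a15 and Slc22a26, in 9 for Abcc1 and in 8 for Abcb4 and Abcc4.

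The 4 tested ABC half-transporters of mitochondria and other organelles had log2 fold changes above 0 and none passed the unadjusted threshold. Among them were Abcb10, which serves heme metabolism, at 0.39, Abcb8 at 0.24 and Abcb6 at 0.21. A readthrough transcript shares 96.9% of the terminal words of Abcb6. Abcb1b, with 3 to 25 counts per mouse, passed the mean of 10 counts but not the filter of the fit, and had 1.84 to 9.63 CPM in Mif-2-/- Apoe-/- livers and 3.52 to 9.54 CPM in Apoe-/- livers.

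**Figure D4:**
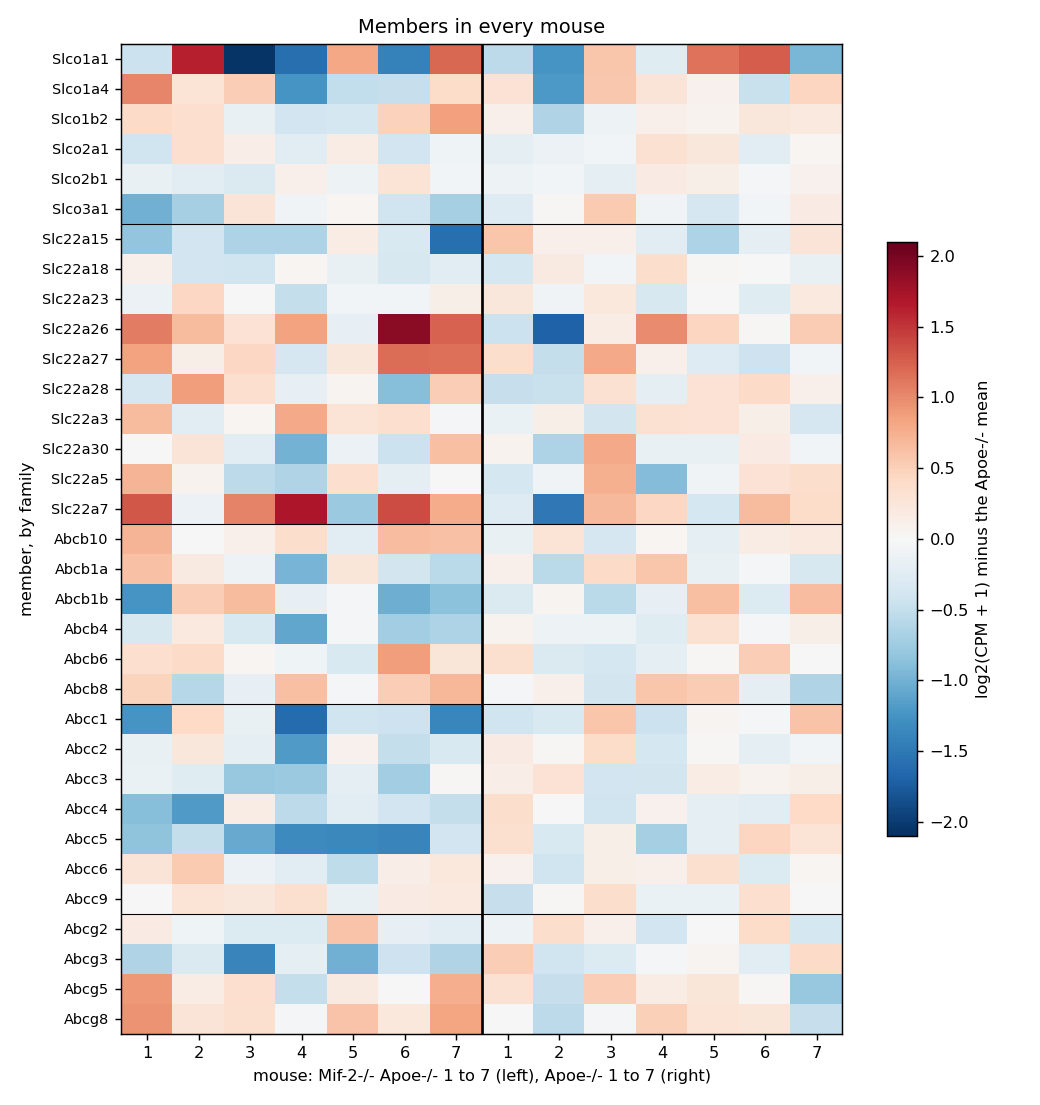
Log2(CPM + 1) in every mouse of 33 of the 35 members with at least 10 counts on average, minus the Apoe-/- mean of that member (colour, red higher and blue lower), Mif-2-/- Apoe-/- mice left and Apoe-/- mice right, families divided by lines. The median over all 35 members is lowest in Mif-2-/- Apoe-/- mice 4 (-0.24) and 6 (-0.19) and lies between -0.11 and 0.11 in Apoe-/- mice.

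The balance of the set shifted with Mif-2-/- Apoe-/- mouse 4. With that mouse 16 members were above 0 and 18 below, and without it 22 were above and 12 below, the median being 0.10. Without mice 4 and 6 the split was 23 against 11, and 6 members had an unadjusted p below 0.05, 3 in each direction. Without Mif-2-/- Apoe-/- mouse 2 alone, 14 members were above 0 and 20 below, with Abcb4 at -0.50 and Abcc1 at -0.95. Mouse 4 held 982 CPM of macrophage markers and mouse 6 held 1002 CPM, against 467 to 724 CPM in the other Mif-2-/- Apoe-/- livers; their part in the transporter values was not tested.

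The 29 members below 10 counts on average were read too thinly for a level. The most tags fell on Slc22a22, a prostaglandin carrier, with 109 over all 14 mice, followed by Abcc10 with 93, Slc22a21 with 87 and Slc22a29 with 85. The renal carriers were close to absent, with 1 count of Slc22a6, 2 of Slc22a12, 22 of Slc22a8 and 21 of Slc22a2 in all mice together. Every one of the 64 members had at least 1 count in some mouse.

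Of 26 genes that regulate transporters, 1 had an unadjusted p below 0.05, that is 3.85% beside 12.9% of all genes tested. That gene was Ppara, the fatty acid receptor, with 60.0 to 182 CPM in Mif-2-/- Apoe-/- livers and 139 to 312 CPM in Apoe-/- livers (log2 fold change -0.69, unadjusted p = 0.00439, adjusted p = 0.188). The xenobiotic receptors Nr1i2 and Nr1i3 were at -0.14 and -0.28, the bile acid receptor Nr1h4 at -0.30, Ahr at 0.09, Nfe2l2 at -0.01 and Hnf4a at 0.01 on the log2 scale. Bcl6 (0.42) and Cebpa (-0.29) had the next lowest p of the list.

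Among 29 tested genes for other hepatic carriers, 2 stood higher and 2 lower at an unadjusted p below 0.05, that is 13.8% beside 12.9% of all genes tested, and none passed the adjusted test. The zinc and iron importer Slc39a14 was at 0.72 (adjusted p = 0.150) and Slc17a2 at 0.52, while the organic cation extruder Slc47a1 was at -0.43 and the peroxisomal transporter Abcd3 at -0.29. Abcb11, the canalicular bile salt pump outside the set, had 164 to 238 CPM in Mif-2-/- Apoe-/- livers and 151 to 201 CPM in Apoe-/- livers (log2 fold change 0.23, adjusted p = 0.440).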

How the data were processed

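Liver RNA of 14 mice was read by prime-seq in 28 libraries, 2 per mouse. The authors made the deposited counts, whole numbers of molecular tags per gene symbol with no normalization, using zUMIs, and the labels name build mm10. Whether strand or intronic reads were used, the aligner settings and the annotation release are not given in the sources used here. The study's model held RNA integrity, which is not in the labels, so no fit adjusted for it.

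The libraries of a mouse were summed. edgeR 4.0.16 (R 4.3.3) kept 9684 genes by filterByExpr, scaled them by TMM factors (0.709 to 1.18) and tested the groups by the quasi-likelihood F test, two-sided, with Benjamini-Hochberg adjustment over all genes tested and a call at adjusted p below 0.05. CPM use the TMM-scaled library sizes. DESeq2 1.42.0 was an alternative, beside other scalings, filters, single libraries, the replicate block and leaving out mice. Leaving out mice 4 and 6, or 3, 4 and 6, of the Mif-2-/- Apoe-/- group was chosen after seeing the data. Correlations over mice used exact permutation tests (scipy 1.17.1).

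Members and lists were chosen with earlier results of these data known. Named are every member with a mean of at least 10 counts, with ranges for those with an unadjusted p below 0.05 and for the member of most tags in each family, up to 4 genes of lowest p from each other list, and 8 regulators; 3 of the genes so named are not reported here. Ranges of Slco1a1, Abcg5, Abcb1b and Abcb11, and the low members named, were added after their values were seen. Positions and shared 50-base words of the last 500 bases came from GENCODE M21 on mm10, which matched all 64 members and 34792 of 36072 symbols. Promoter sequences came from RefSeq on GRCm38.p6. Intervals for fold changes are 95% intervals of the difference between the groups, not of the spread of single mice.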

Additional observations from a re-analysis of the deposited data

Results flagged for a closer look

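The summed CPM of the Slco family in Apoe-/- mouse 2 was 571.67, far below the other 6 Apoe-/- mice, which stood between 840 and 1006 CPM. Its gap to the nearest mouse was 0.617 of the range of the group, above Dixon's critical value for 7 mice. This was the only such value among 80 groups examined. Chance gives about 1 in 20 groups, so a single flag is fewer than chance alone would give. The same mouse had the lowest Slco1b2 of its group (453 CPM), a gene that makes up most of the Slco sum. It also had the lowest Slc22a7 (1.87 CPM) and Slc22a26 (7.84 CPM) of its group and the highest sum of cholangiocyte markers (273 CPM). The part of that mouse's cell makeup in its transporter values was not tested. Without it the Slc22a7 log2 fold change was 0.81.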

How the results depend on the processing

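The count of genes called was 116 with DESeq2, 91 with DESeq2 and a gene filter after the study, 344 with no filter on low counts and 11 in the first library of each mouse, against 21, and 7 to 118 when 1 mouse was left out (118 without Mif-2-/- Apoe-/- mouse 2). Members called were 1 with library totals alone (Abcc5, adjusted p = 0.0422), 3 with no filter on low counts (Abcc5, Slc22a26 and Slc22a7) and 0 to 1 without 1 mouse, against 0. With library totals alone the median of all genes was -0.10 on the log2 scale, and 14 members were above 0 and 20 below. The labels do not say whether equal replicate numbers pair the mice. Deviations of equal-numbered mice from their group means correlated at -0.43 to 0.15 (2 of 7 above 0.1), which cannot exclude a pairing. The replicate block called 14 genes and 0 members, left 9 members at an unadjusted p below 0.05 and turned Slco1a4 to -0.0120; 2 of 14 mice correlated best with their own number.

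Log2 fold changes that changed direction were all of members without an unadjusted p below 0.05, except Abcc4 (0.12 in the duplicate library). Without Mif-2-/- Apoe-/- mice 4 and 6, and without mice 3, 4 and 6, they were 0.0939 and 0.16 for Abcb1a, 0.0430 and 0.13 for Abcg2, 0.0731 and 0.0997 for Slc22a23, 0.0954 and 0.19 for Slc22a30, 0.14 and 0.32 for Slc22a5, 0.36 and 0.67 for Slco1a1, and 0.0272 and 0.000482 for Slco2a1. With library totals alone Abcc6 was at -0.0834 and Slco1a4 at -0.0347. Slco1a1 was at 0.0517 with DESeq2, at 0.0495 with DESeq2 and the study's filter, and at 0.10 in the first library. Leaving out 1 mouse gave -0.32 to 0.0267 for Abcb1a, -0.0364 to 0.13 for Abcc6, -0.18 to 0.0241 for Abcg2, -0.11 to 0.0566 for Slc22a23, -0.00767 to 0.23 for Slc22a28, -0.27 to 0.0579 for Slc22a30, -0.23 to 0.10 for Slc22a5, -0.40 to 0.21 for Slco1a1 and -0.15 to 0.25 for Slco1a4. The cause was not tested for any of these.

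Abcc1, with 5 to 24 counts per mouse, and Abcc5, with 4 to 28, were read thinly, which limits their precision, and no fit adjusted for RNA integrity. The sum of every family kept its direction with library totals alone, in either library of each mouse and without any 1 mouse, but its size moved. The log2 ratio of the Slco sums was 0.17, and 0.0450 without Mif-2-/- Apoe-/- mouse 7, 0.0835 without Apoe-/- mouse 2 and 0.0531 with library totals. That of Slc22a was 0.17, and 0.0993 without Mif-2-/- Apoe-/- mouse 7 and 0.0771 with library totals. That of Abcg was 0.17, and 0.0826 without Mif-2-/- Apoe-/- mouse 1, 0.11 without Apoe-/- mouse 7 and 0.0579 with library totals. Those of Abcb and Abcc were -0.20 and -0.23, and -0.13 and -0.15 without Mif-2-/- Apoe-/- mouse 4 and -0.33 and -0.36 with library totals.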
